A study of Mus musculus with 7 samples.

Results

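The genes described here are 35 mouse genes of sugar breakdown and of the tricarboxylic acid (TCA) cycle, chosen as a list of gene symbols by pathway and matched by Ensembl ID among the 37310 genes of the deposited count table. All 35 were found and all were among the 14626 genes with enough reads to be tested. They comprise 17 genes of glycolysis, 12 genes of the TCA cycle and 6 genes of the pyruvate junction between the pathways. RNA of sorted intestinal crypt cells was sequenced in bulk in 7 libraries from 3 diets. NWD2 (2 libraries) and NWD1 (3 libraries) are purified Western-style diets, and AIN76A (2 libraries) is a purified control diet. Relative to AIN76A, NWD1 is rich in fat and poor in calcium, in vitamin D3 and in methyl donors. NWD2 differs from NWD1 by higher calcium and vitamin D3. Mice of all 3 diets carried the BmicreERT2 and Rosa26RFP alleles, in which a drug-inducible Cre driven by Bmi1 switches on a red fluorescent reporter, and they ate their diet between weaning and 3 months of age. All were labelled male except NWD1 replicate 2, which was labelled female. The sorted cells were strongly red, carried the epithelial protein Epcam and lacked the leukocyte protein CD45. Cre recombination also passes to a cell's progeny, so the red label does not by itself mark Bmi1 expression at the time of sorting. Whether the libraries of a diet came from separate animals is not stated, and p-values therefore measure the spread between these samples, which may be technical.

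Glycolysis breaks glucose down to pyruvate in the cytosol, through phosphorylation by hexokinase, splitting of the sugar by aldolase, and the later steps that yield ATP. Pyruvate is then either reduced to lactate by lactate dehydrogenase or carried into mitochondria, where the pyruvate dehydrogenase complex turns it into acetyl-CoA for the TCA cycle. In the small intestine, absorptive enterocytes also take up and metabolise dietary glucose and fructose, while cells at the crypt base differ among themselves in how far they rely on each pathway.

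Promoter windows were read from RefSeq (mouse build GRCm38.p6), each holding 250 bases before and 50 bases after a gene's start, and 34 of the 35 genes had at least 1 window. They were searched on both strands for ACGTG, the core of the element bound by hypoxia-inducible factors. Its reverse complement is CACGT, and the palindrome CACGTG, an E-box, holds both in overlap. Of the genes with a window, 12 of 17 glycolysis genes (70.6%) held the letters at least once, against 2 of 11 TCA cycle genes (18.2%; Idh3g and Ogdh), 2 of 6 junction genes (33.3%; Pcx and Pdhb) and 21.8% of all 27025 genes in the table. Genes with several windows have more chances of a match. Counting only the first listed window of each gene gave 10 of 17 glycolysis genes (58.8%), 2 of 11 TCA cycle genes (18.2%) and 19.7% of all genes. A match is a description of the letters and not evidence of binding. The bases before the start are printed here for the highest glycolysis gene (Ldha, chr7:46845554-46845803), for the lactate exporter and the pyruvate carboxylase genes that vary most among libraries after Pck1 (Slc16a3, chr11:120948817-120949066, and Pcx, chr19:4510222-4510471), and for the highest TCA cycle gene (Mdh2, chr5:135778399-135778648). All 4 lie on the plus strand and run 5′ to 3′, and capitals mark ACGTG or its reverse complement. Ldha has 3 such stretches, Slc16a3 has 2, Pcx has 2 and Mdh2 has 0.
Ldha: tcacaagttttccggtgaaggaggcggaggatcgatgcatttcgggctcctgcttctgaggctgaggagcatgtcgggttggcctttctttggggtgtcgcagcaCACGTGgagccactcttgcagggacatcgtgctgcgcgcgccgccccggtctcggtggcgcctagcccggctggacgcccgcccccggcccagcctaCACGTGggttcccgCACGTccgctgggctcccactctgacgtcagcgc
Slc16a3: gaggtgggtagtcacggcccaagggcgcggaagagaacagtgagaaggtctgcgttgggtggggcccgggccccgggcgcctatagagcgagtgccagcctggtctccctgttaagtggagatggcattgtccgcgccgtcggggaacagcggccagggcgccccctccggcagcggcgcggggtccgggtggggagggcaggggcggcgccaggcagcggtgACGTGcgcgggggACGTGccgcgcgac
Pcx: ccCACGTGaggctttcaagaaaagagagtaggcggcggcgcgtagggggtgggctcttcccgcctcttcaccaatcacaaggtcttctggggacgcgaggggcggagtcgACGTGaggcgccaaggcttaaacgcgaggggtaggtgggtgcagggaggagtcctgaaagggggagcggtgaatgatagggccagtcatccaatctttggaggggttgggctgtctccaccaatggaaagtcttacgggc
Mdh2: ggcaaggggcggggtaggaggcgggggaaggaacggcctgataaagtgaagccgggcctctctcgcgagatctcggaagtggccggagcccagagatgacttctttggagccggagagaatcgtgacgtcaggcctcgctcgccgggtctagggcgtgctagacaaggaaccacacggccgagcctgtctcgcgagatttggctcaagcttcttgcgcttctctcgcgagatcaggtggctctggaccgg

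Total counts ranged between 14034315 (NWD1 replicate 3) and 77959407 (NWD2 replicate 2). Across genes, pairs of libraries had a median Pearson r of log2 CPM of 0.965 within diets and 0.963 between diets. CPM are counts per 1000000 reads of a library, adjusted between libraries by the trimmed mean of M-values (TMM). NWD2 replicate 2 stood apart. Its TMM factor was 0.797, against 0.951 to 1.09 in the other 6 libraries, and its Epcam level was 225 CPM, against 510.0 to 1338 CPM elsewhere. The summed level of 12 enterocyte markers was 48839 and 101905 CPM in NWD2, 47707 to 66330 CPM in NWD1 and 45838 to 55077 CPM in AIN76A, and 10 of the 12 markers were highest in NWD2 replicate 2. Goblet cell markers, 7 in all, summed to 18975 CPM in AIN76A replicate 1 and to at most 9683 CPM in any other library. Muc2, Tff3, Agr2, Zg16 and Spink4 were highest in AIN76A replicate 1, whereas Fcgbp was highest in NWD2 replicate 2 and Clca1 in NWD2 replicate 1. Enteroendocrine markers, 8 in all, summed to 450.0 and 579 CPM in NWD2, 1559.8 to 1902 CPM in NWD1 and 1742 to 2131 CPM in AIN76A. Paneth cell markers, 7 in all, summed to 10970.1 and 21589 CPM in NWD2, 14629 to 19975 CPM in NWD1 and 27291 to 40126 CPM in AIN76A. Tuft cell markers, 6 in all, summed to 38.2 and 50.02 CPM in NWD2, 77.1 to 173 CPM in NWD1 and 101 to 141 CPM in AIN76A. The 4 crypt base stem cell markers summed to 1139 and 428 CPM in NWD2, 324 to 905 CPM in NWD1 and 346 and 816 CPM in AIN76A. The part of these cell type differences in the results by diet was not tested. Bmi1 itself was low in every library, at 2.12 to 5.25 CPM. Leukocyte markers, 10 in all, summed to 51.9 and 75.5 CPM in NWD2, 45.5 to 323 CPM in NWD1 and 155 and 357 CPM in AIN76A. Of these sums Cd74 alone made 35.4 and 60.4 CPM in NWD2, 28.5 to 302 CPM in NWD1 and 140 and 343 CPM in AIN76A. The 10 stromal and endothelial markers summed to 3.20 and 2.397 CPM in NWD2, 5.25 to 9.29 CPM in NWD1 and 6.03 to 10.04 CPM in AIN76A, of which Vim made 2.12 and 1.14 CPM in NWD2, 4.45 to 8.75 CPM in NWD1 and 5.71 and 9.31 CPM in AIN76A. The endothelial gene Cdh5 was at 0 counts in all 7 libraries, and the endothelial gene Pecam1 had 4 to 23 counts. The TPM table has a column headed as NWD2 replicate 3, which no sample title matches, while NWD1 replicate 3 has no TPM column. The diet of that library is therefore less certain, and values without it are given where they bear on a result.

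Levels between genes were compared in TPM, deposited values that are scaled by gene length and sum to the same total in each library, over the 6 libraries that have them. The highest of the glycolysis genes was Ldha, the lactate dehydrogenase subunit that favours lactate formation, with a median of 3685 TPM and a range of 3214 to 4833 TPM. Gapdh, which oxidises glyceraldehyde 3-phosphate, followed at 1924 TPM (1531 to 2353), and Tpi1, the triose phosphate isomerase, at 1127 TPM (1081 to 1402). The highest of the TCA cycle genes was Mdh2, mitochondrial malate dehydrogenase, at a median of 3010.3 TPM (2596 to 3483), so that its range overlapped that of Ldha. Cs, the citrate synthase that opens the cycle, had 791 TPM (606 to 1016), and Ogdh, the first subunit of the 2-oxoglutarate dehydrogenase complex, had 495 TPM (309 to 885), with overlapping ranges. The sum over the 17 glycolysis genes exceeded the sum over the 12 TCA cycle genes in every library. It was 8833 and 11342 TPM in NWD2, 7819 and 9211 TPM in NWD1, and 10023 and 8317 TPM in AIN76A. For the TCA cycle genes it was 5724 and 7587 TPM in NWD2, 6243 and 6154 TPM in NWD1, and 6044 and 6274 TPM in AIN76A. The ratio of glycolysis to TCA cycle sums was 1.54 and 1.49 in NWD2, 1.25 and 1.497 in NWD1, and 1.66 and 1.33 in AIN76A, and the 3 diets overlapped.

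**Figure D1:**
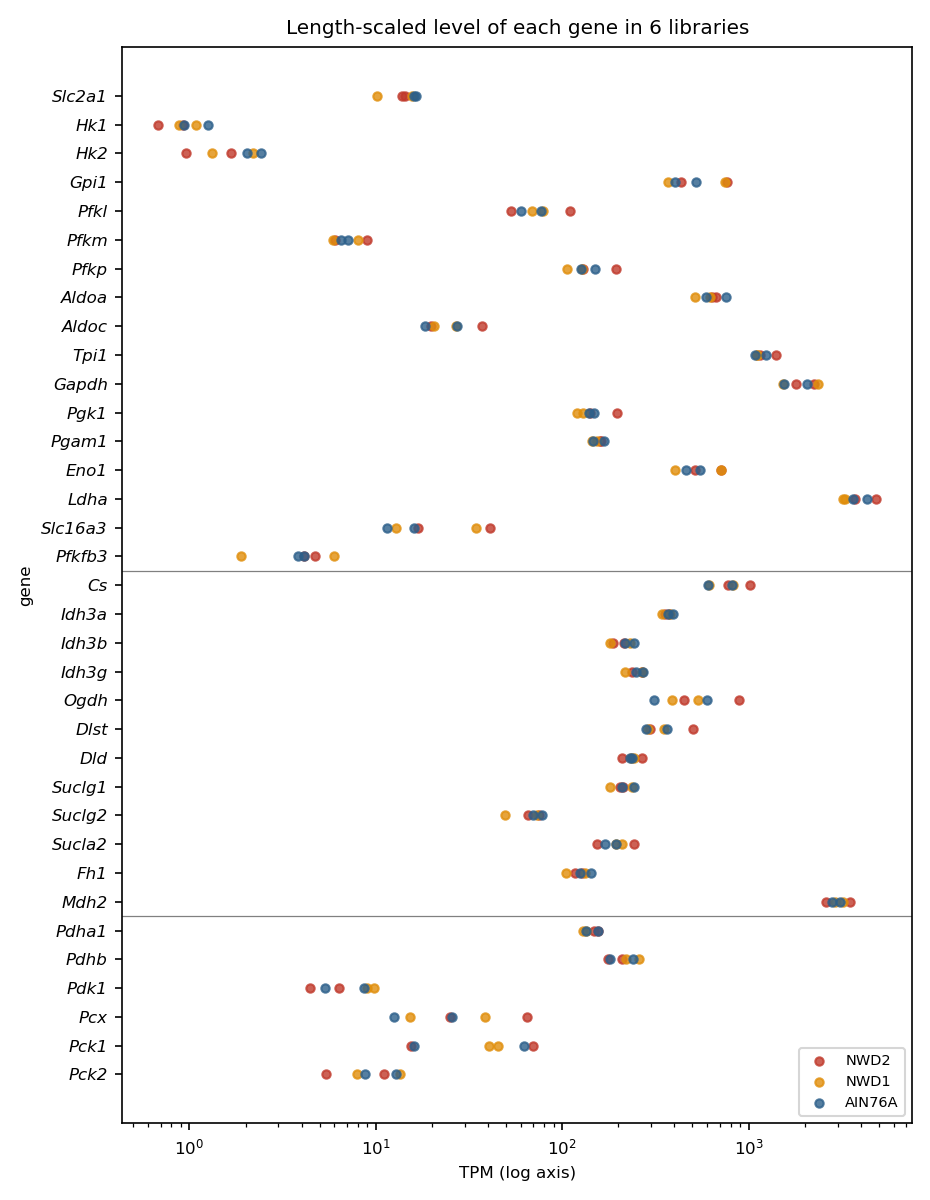
Levels of the 35 genes in TPM (horizontal log axis), 1 point per library for the 6 libraries with TPM, coloured by diet. Glycolysis genes span 0.927 TPM (Hk1, median) to 3685 TPM (Ldha, median), while every TCA cycle gene has a median of at least 71.4 TPM.

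Isozymes of the same step differed widely in level. Of the phosphofructokinase genes, which commit the sugar to glycolysis, Pfkp had a median of 128 TPM (106 to 194), Pfkl 73.2 TPM (53.3 to 110.4) and Pfkm 6.80 TPM (5.92 to 8.95). Of the aldolases, Aldoa had 628 TPM (517 to 761) and Aldoc 23.7 TPM (18.4 to 37.1). The hexokinase genes Hk2 and Hk1 had medians of 1.84 TPM (0.960 to 2.43) and 0.927 TPM (0.681 to 1.26), while Hkdc1, a hexokinase relative outside the 35 genes, had 146 TPM (119 to 205). The glucose transporter gene Slc2a1 had 15.0 TPM (10.1 to 16.5), and the intestinal hexose transporter genes Slc2a2 and Slc2a5, also outside the 35 genes, had 447 TPM (308 to 671) and 536 TPM (421 to 1285). Both transporter genes and Hkdc1 thus had higher TPM than their relatives among the 35. Among the succinyl-CoA ligase genes, the shared alpha subunit Suclg1 had 211 TPM, the ADP-forming beta subunit Sucla2 had 194 TPM and the GTP-forming beta subunit Suclg2 had 71.4 TPM. At the junction, the pyruvate dehydrogenase subunits Pdhb and Pdha1 had 214 and 141 TPM. Pck1 and Pck2, the cytosolic and mitochondrial phosphoenolpyruvate carboxykinases, had 42.9 and 9.88 TPM, Pcx had 25.2 TPM, and the pyruvate dehydrogenase kinase Pdk1, which switches the complex off, had 7.51 TPM. Its relatives Pdk2, Pdk3 and Pdk4, outside the 35 genes, had higher medians of 124, 31.0 and 16.5 TPM.

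Across the 7 libraries, the SD of log2 CPM, given without a test, had a median of 0.39 over glycolysis genes, 0.28 over TCA cycle genes, 0.37 over junction genes and 0.45 over all tested genes. The most variable of the 35 were Pck1 (SD 0.89, highest over lowest library 5.30-fold), Pcx (0.83, 5.21-fold), Slc16a3 (0.78, 4.29-fold) and Pfkfb3 (0.69, 4.998-fold), which makes the activator of phosphofructokinase. The least variable were Pdha1 (0.20), Dld (0.21), the shared E3 subunit of the dehydrogenase complexes, and Idh3a (0.21), a subunit of isocitrate dehydrogenase. Pck1, which makes phosphoenolpyruvate for glucose synthesis, had 27.7 and 147 CPM in NWD2, against 77.5, 67.4 and 40.2 CPM in NWD1, while it had 34.3 and 106 CPM in AIN76A. Its NWD2 libraries were thus the lowest and the highest of the 7. Pfkfb3 had 17.5 and 17.8 CPM in NWD2 and 6.64, 20.2 and 33.2 CPM in NWD1, against 16.9 and 14.5 CPM in AIN76A, so that both extremes were NWD1 libraries.

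**Figure D2:**
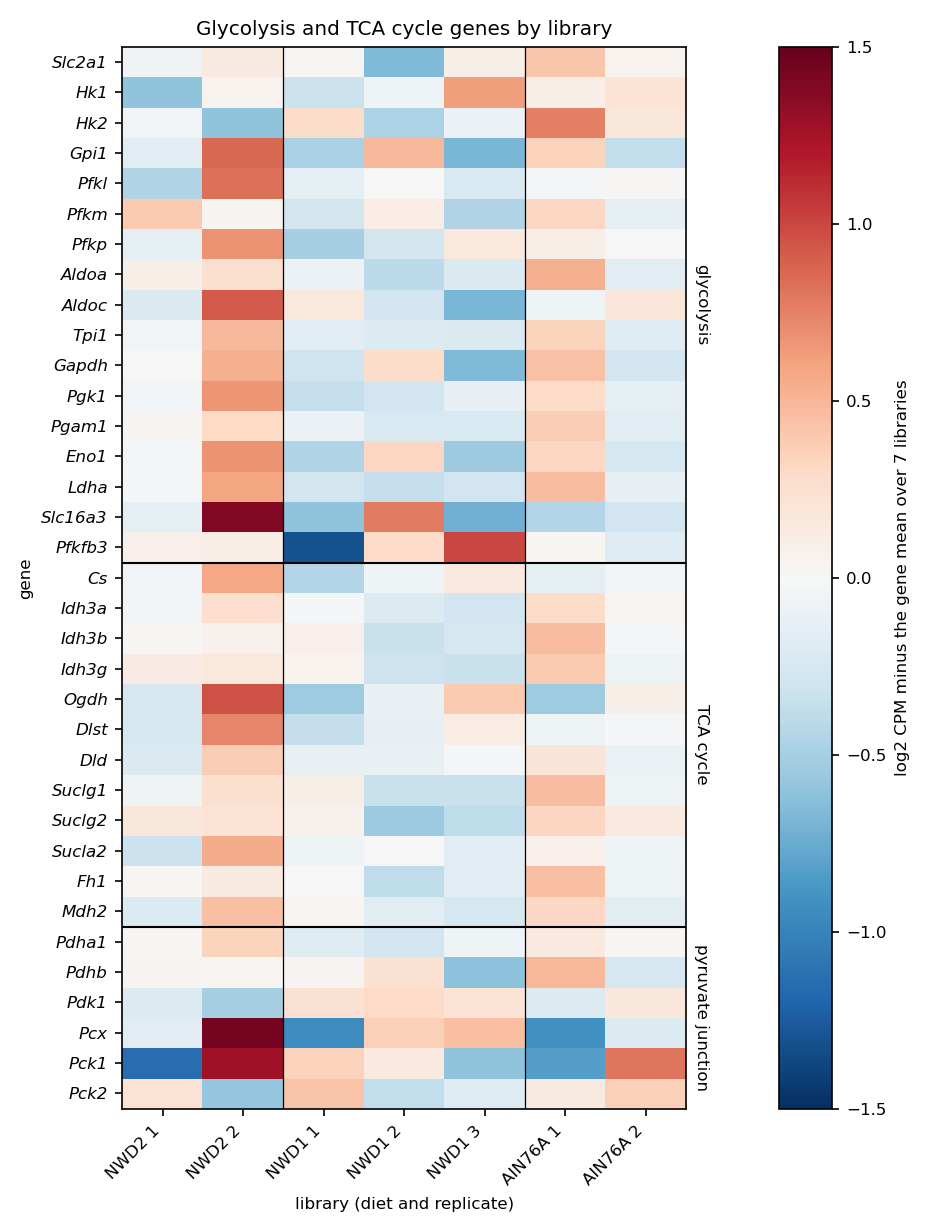
Deviation of each gene's log2 CPM from its mean over the 7 libraries (colour), with genes in rows by pathway and libraries in columns by diet. NWD2 replicate 2 is highest for 10 of 17 glycolysis and 6 of 12 TCA cycle genes, and AIN76A replicate 1 for 4 and 6.

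Libraries of the same diet differed from each other across many of these genes. NWD2 replicate 2 was the highest of the 7 libraries for 10 of 17 glycolysis genes and 6 of 12 TCA cycle genes, against 23.1% of all tested genes. AIN76A replicate 1 was highest for 4 glycolysis and the other 6 TCA cycle genes, against 21.6% of all tested genes. NWD1 replicate 3, the shallowest library, was lowest for 8 glycolysis and 4 TCA cycle genes, against 18.4% of all tested genes. Between libraries of the same diet, NWD2 replicate 2 exceeded replicate 1 for 15 of 17 glycolysis, 12 of 12 TCA cycle and 3 of 6 junction genes (48.2% of all tested genes). AIN76A replicate 1 exceeded replicate 2 for 13, 9 and 2 of these genes (49.1% of all tested genes). The enterocyte and goblet cell markers that were high in the same 2 libraries are given above, and their part in these differences was not tested. In RNA from bulk cells, fewer cells of a type and less RNA per cell cannot be told apart.

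As a summary per library, the median deviation of the genes of a pathway from their own means over the 7 libraries was taken on the log2 scale. For glycolysis it was -0.04 and 0.54 in NWD2, -0.27, -0.20 and -0.23 in NWD1, and 0.31 and -0.14 in AIN76A. For the TCA cycle it was -0.05 and 0.31 in NWD2, -0.01, -0.18 and -0.21 in NWD1, and 0.29 and -0.06 in AIN76A. The NWD1 libraries lay within 0.07 of each other for glycolysis, while the NWD2 libraries lay 0.58 apart and the AIN76A libraries 0.45 apart. All 3 NWD1 values for glycolysis were below those of the other 4 libraries, whereas for the TCA cycle NWD1 replicate 1 was above NWD2 replicate 1 and AIN76A replicate 2. The pooled SD within diets was 0.26 for glycolysis and 0.19 for the TCA cycle, and the median over all tested genes lay between -0.01 and 0.04 in every library.

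**Figure D3:**
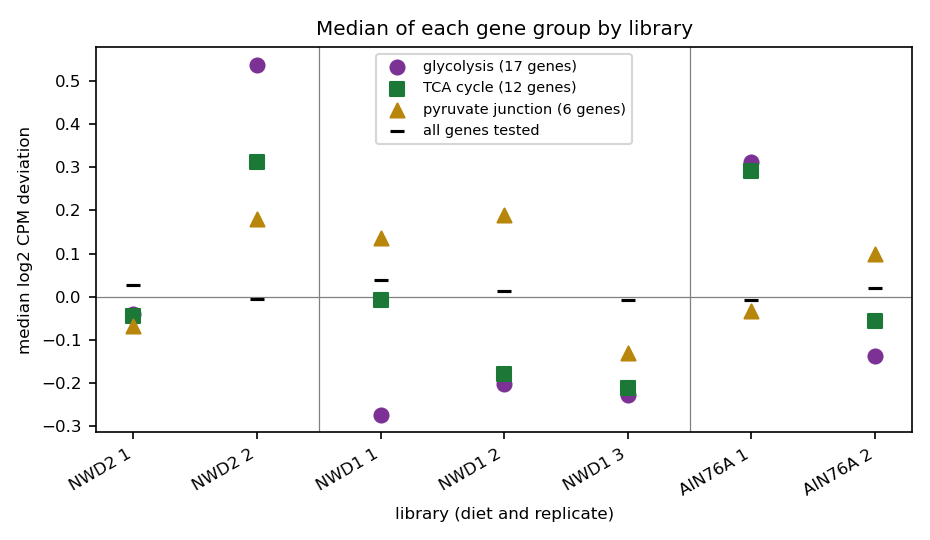
Median deviation of glycolysis, TCA cycle and junction genes from their means over the 7 libraries (vertical axis, log2 CPM), by library within diet, beside all tested genes. The 2 NWD2 libraries differ from each other by 0.58 for glycolysis, which is more than the 0.07 among the 3 NWD1 libraries.

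NWD1 against AIN76A compares the 2 pathways between the Western-style diet and the control diet. NWD1 replicate 3 carried a different library index (i5) from the AIN76A libraries, and NWD1 replicate 2 was labelled female. Diet is therefore partly mixed with index and with sex. Most genes of both had negative fold changes in NWD1, by small amounts that did not pass the test and were smaller on the TPM scale. Fitted log2 fold changes were negative for 15 of 17 glycolysis genes, with a median of -0.29 and a range of -0.56 to 0.36, and for 11 of 12 TCA cycle genes, with a median of -0.27 and a range of -0.50 to 0.16. The median over all tested genes was 0.01. With scaling by library size alone, 14 of 17 and 8 of 12 were negative, with medians of -0.17 and -0.15. With limma on log2(TPM + 1), which leaves out NWD1 replicate 3, 10 of 17 and 7 of 12 were negative, with medians of -0.08 and -0.04. The median over all tested genes also moved, to 0.11 with library size scaling and to 0.10 on the TPM scale. Both pathways stayed below it. None of the 35 genes passed an edgeR quasi-likelihood test at a Benjamini-Hochberg adjusted p under 0.05 (smallest adjusted p = 0.878), and 0 of them had an unadjusted p under 0.05. Across all tested genes, 0% passed the adjusted threshold and 3.42% had an unadjusted p under 0.05. Of the 35 genes, 4 had every NWD1 library below every AIN76A library (8.61% of all tested genes), namely Ldha, Idh3a, Suclg2 and Pdha1, and 1 had every NWD1 library above (11.4% of all tested genes), namely Pdk1. Ldha had 4871, 4636 and 4809 CPM in NWD1, against 8110.0 and 5419 CPM in AIN76A. Its NWD1 libraries lay close together and below both AIN76A libraries, at a log2 fold change of -0.50 (SE 0.335, edgeR adjusted p = 0.878). Suclg2 had 124, 81.0 and 90.8 CPM in NWD1, against 148 and 131 CPM in AIN76A, at -0.50 (SE 0.263, edgeR adjusted p = 0.878). Hk2, which had few reads, had 6.50, 3.83 and 5.05 CPM in NWD1, against 9.09 and 6.02 CPM in AIN76A. The groups overlapped, at -0.56 (SE 0.373, edgeR adjusted p = 0.878). The overlap was also seen for Aldoa, with 856, 689 and 782 CPM in NWD1, against 1312 and 807 CPM in AIN76A, at -0.45 (SE 0.300, edgeR adjusted p = 0.878). Idh3b, another isocitrate dehydrogenase subunit, had 397, 299 and 317 CPM in NWD1, against 519.9 and 369 CPM in AIN76A, with overlap, at -0.40 (SE 0.275, edgeR adjusted p = 0.878). AIN76A replicate 1 carried much of the difference. Without it the medians were -0.06 for glycolysis and -0.11 for the TCA cycle, with 12 of 17 and 10 of 12 genes negative, and leaving out AIN76A replicate 2 gave -0.49 and -0.44. Leaving out NWD1 replicate 3 gave -0.27 and -0.23. With an i5 index term, 15 of 17 glycolysis and 12 of 12 TCA cycle genes were negative. Without NWD1 replicate 2 the counts were 15 of 17 and 11 of 12. Without AIN76A replicate 1, Ldha was at -0.19, Hk2 at -0.24, Aldoa at -0.06 and Idh3b at -0.13, and without AIN76A replicate 2 they were at -0.76, -0.83, -0.76 and -0.62. Suclg2 rested less on AIN76A replicate 1. Over libraries left out in turn it ran between -0.70 (without NWD1 replicate 1) and -0.38 (without NWD1 replicate 2).

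NWD2 against AIN76A sets the Western-style diet with raised calcium and vitamin D3 against the control diet, so it does not isolate the raised calcium and vitamin D3. All NWD2 libraries carried a different library index (i5) from all AIN76A libraries, so diet and index cannot be told apart here. Glycolysis genes were mostly slightly higher in NWD2 and TCA cycle genes were evenly divided. Log2 fold changes were positive for 13 of 17 glycolysis genes (median 0.17, range -0.79 to 1.17) and for 6 of 12 TCA cycle genes (median 0.01, range -0.19 to 0.67), with a median of -0.03 over all tested genes. With scaling by library size alone, 11 of 17 and 3 of 12 were positive and the TCA cycle median was -0.13. The median over all tested genes was then -0.15. No gene of the 35 passed the edgeR adjusted p (smallest 0.996), and 0% of all tested genes did. Of the 35, 1 gene, Pcx, had an unadjusted p under 0.05 (3.83% of all tested genes). Every NWD2 library was above both AIN76A libraries for 4 genes (13.2% of all tested genes), namely Slc16a3, Pfkfb3, Cs and Pcx. Every NWD2 library was below for 2 genes (13.2% of all tested genes), the hexokinases Hk1 and Hk2. Pcx, which makes the pyruvate carboxylase that refills the TCA cycle with oxaloacetate, had 55.8 and 169 CPM in NWD2, against 33.4 and 54.2 CPM in AIN76A. One NWD2 library was just above the higher AIN76A library and the other far above it, at a log2 fold change of 1.36 (SE 0.587, 95% interval 0.04 to 2.68, edgeR adjusted p = 0.996). Slc16a3, the lactate exporter MCT4, had 46.9 and 134 CPM in NWD2, against 38.1 and 42.3 CPM in AIN76A, at 1.17 (SE 0.591, 95% interval -0.16 to 2.50, edgeR adjusted p = 0.996). Hk2 had 5.21 and 3.52 CPM in NWD2, below its 9.09 and 6.02 CPM in AIN76A, at -0.79 (SE 0.413, edgeR adjusted p = 0.996). Ogdh had 1294 and 2969 CPM in NWD2, against 1058 and 1628 CPM in AIN76A, with overlap, at 0.67 (SE 0.477, edgeR adjusted p = 0.996). Pdk1 had 26.0 and 21.2 CPM in NWD2, against 25.9 and 33.5 CPM in AIN76A, also with overlap, at -0.33 (SE 0.272, edgeR adjusted p = 0.996). Leaving out NWD2 replicate 2, or AIN76A replicate 2, turned the direction of both medians. Without NWD2 replicate 2 they were -0.14 for glycolysis and -0.20 for the TCA cycle, with 14 of 17 and 11 of 12 genes negative, and the values of Pcx, Slc16a3 and Ogdh were 0.35, 0.23 and -0.05. Leaving out NWD2 replicate 1 gave medians of 0.35 and 0.16. Leaving out AIN76A replicate 1 gave 0.34 and 0.21, and leaving out AIN76A replicate 2 gave -0.07 and -0.13. Over all libraries left out in turn, Hk2 ran between -1.15 and -0.46 and Pdk1 between -0.53 and -0.13.

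**Figure D4:**
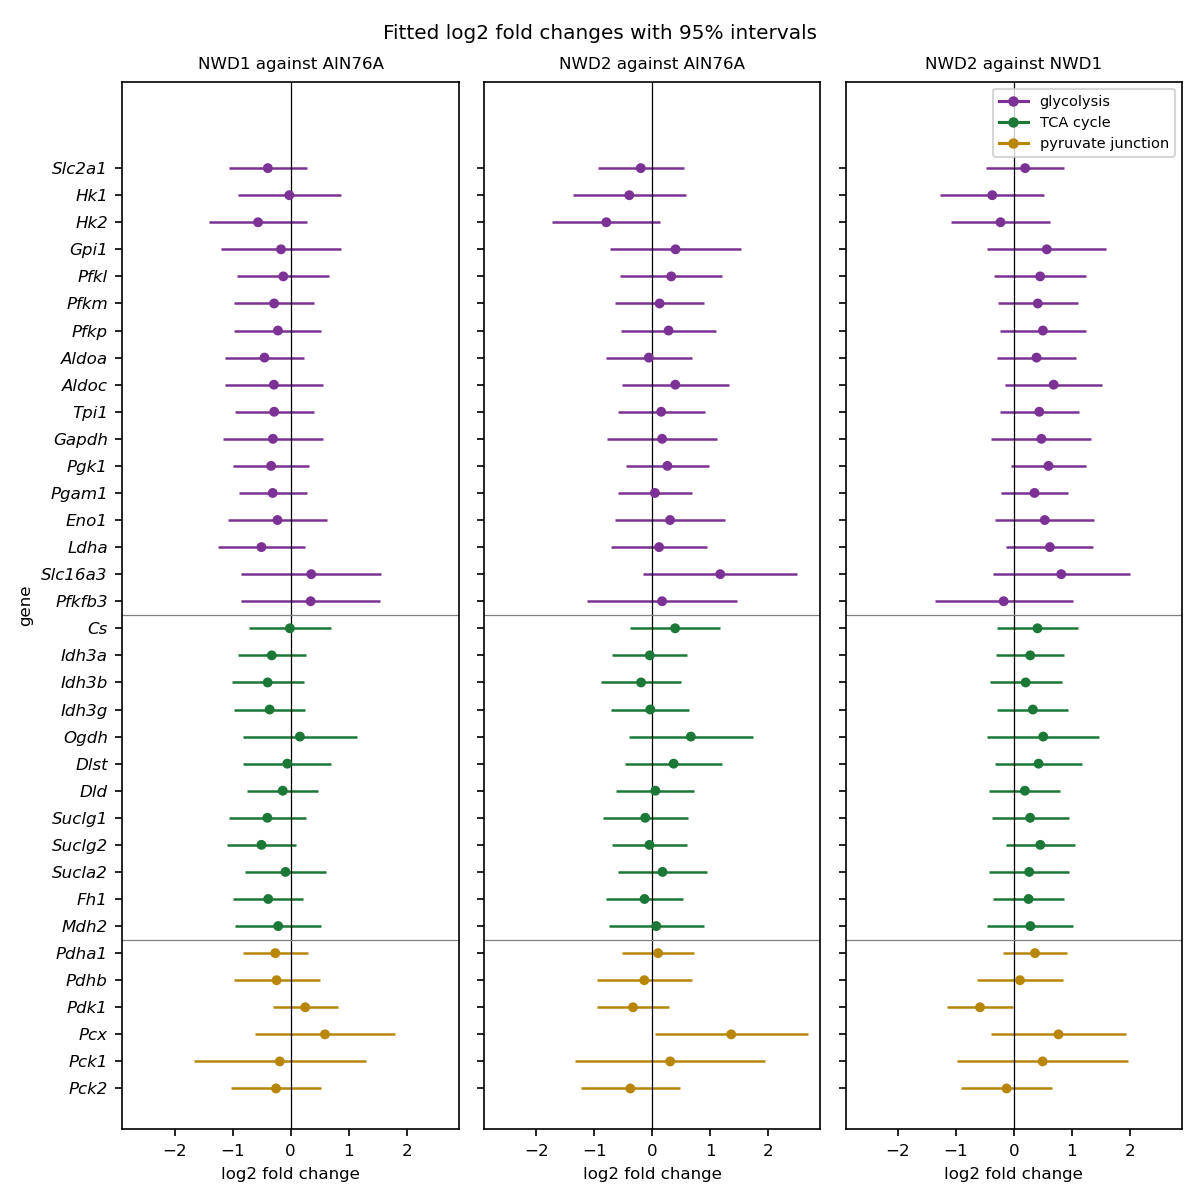
Fitted log2 fold changes (horizontal axis) of the 35 genes with 95% intervals in the 3 comparisons, coloured by pathway, with 0 marked. Intervals cross 0 in all but Pcx with NWD2 against AIN76A and Pdk1 with NWD2 against NWD1, neither of which passed an adjusted p.

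NWD2 against NWD1 compares the Western-style diets with and without raised calcium and vitamin D3. Of the NWD1 libraries only replicate 3 carried the i5 index of the NWD2 libraries, and NWD1 replicate 2 was labelled female. Diet is therefore partly mixed with index and with sex here. Nearly all genes of both pathways were higher in NWD2, again without passing the test. Log2 fold changes were positive for 14 of 17 glycolysis genes (median 0.45, range -0.37 to 0.82) and for 12 of 12 TCA cycle genes (median 0.28, range 0.19 to 0.51), with a median of 0.05 over all tested genes. With scaling by library size alone, 13 of 17 and 9 of 12 were positive, with medians of 0.20 and 0.0218. With limma on log2(TPM + 1) the counts were 15 of 17 and 8 of 12, with medians of 0.18 and 0.04. The median over all tested genes also moved, to -0.19 with library size scaling and to -0.11 on the TPM scale. Both pathways stayed above it. No gene of the 35 passed the edgeR adjusted p (smallest 0.623), and 0% of all tested genes did. Of the 35, 1 gene, Pdk1, had an unadjusted p under 0.05 (7.89% of all tested genes). Both NWD2 libraries were above all NWD1 libraries for 9 of the 35 genes (10.8% of all tested genes). They were the glycolysis genes Aldoa, Tpi1, Pgk1, Pgam1 and Ldha, the TCA cycle genes Idh3g, Suclg2 and Fh1, and Pdha1. For 1 gene, Pdk1, both were below all NWD1 libraries (14.5% of all tested genes). Pdk1 had 26.0 and 21.2 CPM in NWD2, against 34.99, 36.6 and 34.5 CPM in NWD1. The NWD1 libraries were within 2.1 CPM of each other and the groups did not overlap, at a log2 fold change of -0.58 (SE 0.252, 95% interval -1.15 to -0.01, edgeR adjusted p = 0.623). Of the related kinase genes, Pdk2, which had the highest TPM among them, was at 0.01 and Pdk4 at -0.04. Pdk3, also below all NWD1 libraries in NWD2, was at -0.55. Ldha had 5825 and 8857 CPM in NWD2, against 4871, 4636 and 4809 CPM in NWD1, at 0.62 (SE 0.334, edgeR adjusted p = 0.697). Pgk1, the phosphoglycerate kinase that yields ATP, had 166 and 270.3 CPM in NWD2, against 135, 141 and 157 CPM in NWD1, at 0.60 (SE 0.288, edgeR adjusted p = 0.666). Suclg2 had 134 and 137 CPM in NWD2, against 124, 81.0 and 90.8 CPM in NWD1, at 0.46 (SE 0.263, edgeR adjusted p = 0.711). Aldoc had 33.8 and 74.3 CPM in NWD2, against 44.0, 32.2 and 24.4 CPM in NWD1, with overlap, at 0.69 (SE 0.371, edgeR adjusted p = 0.697). The sizes of both medians again rested on NWD2 replicate 2. Without it the medians were 0.11 for glycolysis and 0.10 for the TCA cycle, with 12 of 17 and 7 of 12 genes positive, and Ldha, Pgk1 and Aldoc were at 0.30, 0.21 and 0.02. Leaving out NWD2 replicate 1 gave 0.68 and 0.43, and leaving out NWD1 replicate 3 gave 0.39 and 0.24. With an i5 index term, and also without NWD1 replicate 2, 13 of 17 glycolysis and 12 of 12 TCA cycle genes were positive. Pdk1 was at -0.44 without NWD2 replicate 2 and at -0.77 without NWD2 replicate 1. Suclg2 ran between 0.33 (without NWD1 replicate 2) and 0.65 (without NWD1 replicate 1) over libraries left out in turn.

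**Figure D5:**
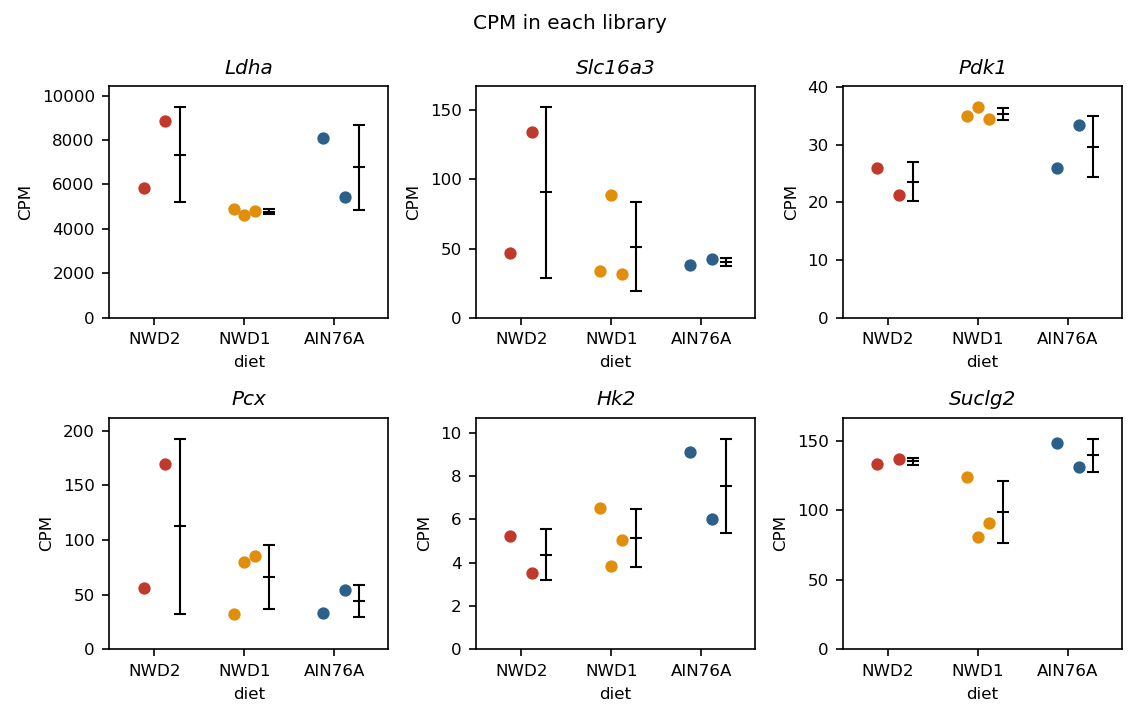
CPM (vertical axis, starting at 0) of Ldha, Slc16a3, Pdk1, Pcx, Hk2 and Suclg2 in each library by diet, with the mean and SD beside the points. For Pcx, Slc16a3 and Ldha the higher NWD2 point is NWD2 replicate 2, whereas its Pdk1 and Hk2 are the lower NWD2 point.

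The 3 comparisons share libraries in pairs, so their values are not independent of each other. Set side by side, the median for glycolysis minus the median for the TCA cycle was -0.01 for NWD1 and 0.16 for NWD2, both against AIN76A, and 0.17 between NWD2 and NWD1. Per library, the glycolysis median minus the TCA cycle median was 0.00 and 0.23 in NWD2, -0.27, -0.02 and -0.02 in NWD1, and 0.02 and -0.08 in AIN76A. Its pooled SD within diets was 0.13. Both NWD2 values lay above all 3 NWD1 values, while the AIN76A values overlapped those of NWD2 and of NWD1. Without NWD2 replicate 2 the difference between the pathways was 0.06 with NWD2 against AIN76A and 0.00 with NWD2 against NWD1. The medians of both pathways were above 0 in NWD2 replicate 2 and AIN76A replicate 1 and below 0 in the other 5 libraries. No test of the difference between the pathways is given, and with 3 against 2 libraries an exact permutation test could not go below p = 0.1. The margin of the 95% interval on either side of a single gene's fold change had a median of 0.74 to 0.82 over the 35 genes on the log2 scale, which is larger than any of these medians.

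Of 56 further genes of the pathways and their regulators, 53 were tested, 21 of glycolysis and fructose use, 22 of the TCA cycle and pyruvate entry, and 10 regulators. None passed the edgeR adjusted p in any comparison (smallest 0.878 for NWD1 and 0.886 for NWD2, both against AIN76A, and 0.533 between NWD2 and NWD1). Fold changes were positive for 8 of 21 glycolysis and fructose genes in NWD1 (median -0.19) and for 15 of 21 in NWD2 (median 0.21), both against AIN76A, and for 17 of 21 between NWD2 and NWD1 (median 0.48). For the 22 genes of the TCA cycle and pyruvate entry the counts were 6 (median -0.16), 11 (median -0.01) and 14 (median 0.20). Pkm, the pyruvate kinase that ends glycolysis in most tissues, had 1959 and 3271 CPM in NWD2, against 1373, 1752 and 1475 CPM in NWD1 (log2 fold change 0.77, SE 0.341, edgeR adjusted p = 0.634). Without NWD2 replicate 2 it was at 0.36. Esrra, a nuclear receptor that activates genes of mitochondrial metabolism, had 54.0 and 24.9 CPM in NWD2 and 96.2, 69.7 and 92.1 CPM in NWD1, against 41.9 and 60.4 CPM in AIN76A. It was higher in every NWD1 library than in any library of the other diets, at -1.13 with NWD2 against NWD1 (SE 0.370, edgeR adjusted p = 0.533) and at 0.75 with NWD1 against AIN76A (SE 0.365, edgeR adjusted p = 0.878). The first value was -0.66 without NWD2 replicate 2 and -1.82 without NWD2 replicate 1, and the second ran between 0.50 and 1.04 over libraries left out in turn. Pfkfb4, which also regulates phosphofructokinase, had 81.3 and 198 CPM in NWD2, against 60.5 and 83.1 CPM in AIN76A (0.96, SE 0.464, edgeR adjusted p = 0.996), with overlap. Its value was 0.18 without NWD2 replicate 2 and 1.42 without NWD2 replicate 1. Dhtkd1, a relative of Ogdh in lysine breakdown, had 7.17 CPM in AIN76A replicate 1 and at most 0.435 CPM in the other 6 libraries. Its values of -5.37 with NWD1 and -5.39 with NWD2 against AIN76A (SE 1.31 and 1.48, edgeR adjusted p = 0.878 and 0.886) thus rested on that library, without which they were -2.23 and -2.27. Ldhb and Adpgk were low in level. Ldhb had 0.248, 0.115 and 0 CPM in NWD1, against 0.702 and 0.363 CPM in AIN76A (-1.93, SE 0.908, edgeR adjusted p = 0.878), and ran between -2.70 and -1.40 over libraries left out in turn. Adpgk had 3.92 and 0.676 CPM in NWD2, against 6.29, 4.98 and 5.38 CPM in NWD1 (-1.27, SE 0.632, edgeR adjusted p = 0.676). It was at -0.50 without NWD2 replicate 2 and at -3.07 without NWD2 replicate 1.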

How the data were processed

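The deposited counts are whole numbers of reads per Ensembl gene. Per the labels' protocols, cDNA was made with SMART-Seq v4 and paired-end libraries with Nextera XT. Such libraries carry no strand information. Per the submitters' processing notes, STAR 2.4.2a, HTSeq 0.6.1 and edgeR were used with build mm9, with no roles given. The annotation and the gene lengths behind the deposited TPM values are not given in the sources used here. In the TPM table, 1 column matched no sample title and was not used, which left 6 libraries with TPM.

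Diet came from the sample titles. Gene symbols came from the TPM table, and 4 newer symbols outside the 35 genes were matched by Ensembl ID. The test was edgeR 4.0.16 (R 4.3.3), quasi-likelihood, with TMM scaling, filterByExpr and robust fitting, over all 7 libraries with diet as the only term (4 residual degrees of freedom, biological coefficient of variation 0.363). P-values were Benjamini-Hochberg adjusted over all 14626 genes tested and called under 0.05. The same fit was also run on simulated counts with planted fold changes. The share recovered is not given here, so a lack of calls does not show that no gene differed. A permutation test, exact over the libraries, cannot go below p = 0.333 with 2 against 2 libraries or 0.1 with 3 against 2, so none was used. SEs are the fold change divided by the square root of F. Log2 CPM used a prior count of 2.

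The genes and lists were chosen with earlier results of these data known. Fold changes with p-values are given for the 5 of the 35 genes and the 3 further pathway genes of smallest p in each comparison. Of the further genes, 1 that the rule names with NWD2 against AIN76A is not reported here. The depth per library, 14034315 to 77959407 counts, makes counting error small for all but the lowest genes, so the spread between libraries sets the precision. Gapdh, Tpi1, Pgk1, Eno1, Ldha, Aldoa and Pgam1 have processed copies elsewhere in the mouse genome, and how reads shared with these were counted is not given in the sources used here, so their levels are less certain. The alternatives were DESeq2 size factors, library size scaling, no filter, the Wald test of DESeq2 1.42.0, a minimum of 1 CPM in 2 libraries, limma 3.58.1 on log2(TPM + 1), replicate number as a block, the i5 index as a term, and each library left out in turn. Replicate numbers were not taken to pair the libraries, since no pairing is stated. Only NWD1 carried both i5 indices, so within an index NWD2 could be set against NWD1 replicate 3 alone. All AIN76A libraries carried the same index and all NWD2 libraries the other, so these diets and the index cannot be told apart. With an i5 index term, NWD2 against AIN76A is linked only through the NWD1 libraries.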

Additional observations from a re-analysis of the deposited data

How the results depend on the processing

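The count of all genes called was 0 in each comparison with edgeR. With NWD1 against AIN76A it was 85 with no filter, 1 with the DESeq2 Wald test and 1 with limma on log2(TPM + 1). With NWD2 against AIN76A it was 190 with no filter, 52 with DESeq2, 1 with the replicate number as a block and 1 with an i5 index term. With NWD2 against NWD1 it was 384, 174, 1 with limma on log2(TPM + 1) and 2 with an i5 index term. Of the 35 genes, 1 was called under any of these alternatives, Pcx with NWD2 against AIN76A and no filter (log2 fold change 1.39, edgeR adjusted p = 0.0287). At an unadjusted p under 0.05 the edgeR counts over all genes were 500, 560 and 1154 in the order given. The TCA cycle median with NWD1 against AIN76A was -0.0444 on the TPM scale. With NWD2 against NWD1 it was 0.0218 with library size scaling and 0.0356 on the TPM scale, where the glycolysis median was 0.18. Library size scaling moved the median of all genes by 0.11, -0.12 and -0.24. The TPM scale moved it by 0.09 with NWD1 against AIN76A and by -0.16 with NWD2 against NWD1. The i5 index term moved it by 0.10 with NWD2 against AIN76A. The TCA cycle median with NWD2 against AIN76A, 0.01, changed sign to -0.13 with library size scaling and to -0.01 with the 1 CPM filter and on the TPM scale. Ogdh with NWD2 against AIN76A was reversed to -0.0374 with an i5 index term and to -0.0498 without NWD2 replicate 2, and it was 1.104 without NWD2 replicate 1. The cause was not tested.

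With each library left out in turn, the medians with NWD1 against AIN76A ranged over -0.49 to -0.06 for glycolysis and -0.44 to -0.11 for the TCA cycle. With NWD2 against AIN76A they ranged over -0.14 to 0.35 and -0.20 to 0.21, and with NWD2 against NWD1 over 0.11 to 0.68 and 0.10 to 0.43. The difference between the pathways ranged over -0.05 to 0.10, 0.06 to 0.18 and 0.00373 to 0.25. Genes called with NWD2 against NWD1 ranged over 0 to 1, the 1 without NWD2 replicate 2. Where this leaves 1 library in a diet, its spread is taken from the other diets.

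Replicate numbers are shared between diets without a stated pairing. Same-numbered libraries deviated from their diet means with correlations across genes of -0.00 to 0.26. These correlations cannot exclude a pairing, because within NWD2 and within AIN76A the deviations of the libraries mirror each other. The numbers were not taken to pair the libraries. With the number as a block, the medians for glycolysis and the TCA cycle were -0.28 and -0.23 with NWD1 against AIN76A, 0.15 and 0.01 with NWD2 against AIN76A, and 0.38 and 0.26 with NWD2 against NWD1, and the block called 0, 1 and 0 genes.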

Other observations

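Hif1a, which encodes the oxygen-regulated activator of many glycolysis genes, had 71.2 and 71.3 CPM in NWD2, against 97.0, 119 and 90.2 CPM in NWD1, while it had 30.3 and 93.5 CPM in AIN76A. It was lowest in AIN76A replicate 1. Myc, another activator of glycolysis genes, had 31.4 and 7.74 CPM in NWD2, against 22.5, 15.3 and 12.9 CPM in NWD1, while it had 12.3 and 22.2 CPM in AIN76A, and was lowest in NWD2 replicate 2. Me1, the cytosolic malic enzyme that turns malate into pyruvate, had 3.50 and 167 CPM in NWD2, against 131, 96.1 and 70.2 CPM in NWD1, while it had 14.2 and 113 CPM in AIN76A. The spread of Me1 within NWD2 and within AIN76A was thus wider than its range in NWD1, and the same held for Pck1. These genes were chosen after their values were seen. Among the other regulators, Egln3 and Ppargc1a were highest in NWD2 replicate 2, whereas Egln1, Vhl and Esrra were lowest there. Egln1 was highest in AIN76A replicate 1. The part of any regulator in the levels of the glycolysis genes was not tested.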
